A study of Mus musculus with 16 samples.

Results

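Regulatory T cell genes were followed in antigen-specific CD4+ T cells of the mouse. The 8 genes listed were Foxp3, Nrp1, Gpr83, Lrrc32, Entpd1, Nt5e, Il10 and Tgfb1, found in the files by symbol. Of these, 7 of 8 were measured, among 18193 genes with a probe set of 1 symbol. Lrrc32, which encodes the surface anchor GARP for latent TGF-beta, was not analysed here. Where a gene had several probe sets, the brightest on average over all 16 arrays stood for it. All values are levels on the log2(intensity + 1) scale, and a dim probe set means one below the median probe set of 4.37.

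The cells were AND T cells, which carry a transgenic receptor for a moth cytochrome c peptide and the donor marker CD90.1. Lymph node cells were transferred into B10.BR mice of 6 to 8 weeks, and CD4+CD90.1+ cells were sorted 60 h later. No marker of regulatory cells was part of the sort. Recipients saw the peptide persistently, transiently or not at all, under doxycycline control, and received either FGK45.5, an activating antibody against CD40 that matures dendritic cells, or PBS, which leaves them resting. The groups were persistent antigen with FGK (3 arrays), persistent antigen with PBS (3), transient antigen with FGK (2), transient antigen with PBS (3), no antigen with FGK (2) and no antigen with PBS (3). Persistent and transient recipients were Ii-rTA+, TIM+ and those without antigen were Ii-rTA-, TIM+. In the comparisons with no antigen, the effect of the antigen therefore cannot be told apart from that of the Ii-rTA transgene, while persistent and transient recipients share the genotype. Separate animals are not stated for the replicates, so the p-values cover the spread between these arrays, which may be technical.

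The regulatory state of a CD4+ T cell rests on the transcription factor Foxp3, which is switched on in the thymus or, in the periphery, after antigen encounter with TGF-beta. Regulatory cells act through surface molecules, through enzymes that turn extracellular ATP into adenosine, and through the cytokines IL-10 and TGF-beta. Several of these molecules are not particular to them: Nrp1, Nt5e and Il10 are also used by activated or resting conventional T cells. The question was whether antigen on resting dendritic cells raised the regulatory genes by 60 h.

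Promoter windows are shown for the factor that defines the lineage and for the 3 members with the widest span between group means, taken from RefSeq (GRCm38.p6, plus strand). Each runs from 250 bases before to 50 after a transcript start of the gene. The table held 6 of the 8 members. Capitals mark matches, on either strand, to 10 short motifs named below.
Foxp3, chrX:7579426-7579725: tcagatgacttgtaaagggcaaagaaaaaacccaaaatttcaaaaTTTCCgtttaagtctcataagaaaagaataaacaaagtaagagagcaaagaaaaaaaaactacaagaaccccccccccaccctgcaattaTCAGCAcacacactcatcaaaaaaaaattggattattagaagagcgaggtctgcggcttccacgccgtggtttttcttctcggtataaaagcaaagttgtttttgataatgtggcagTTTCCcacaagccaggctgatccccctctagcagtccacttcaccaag
Nrp1, chr8:128358823-128359122: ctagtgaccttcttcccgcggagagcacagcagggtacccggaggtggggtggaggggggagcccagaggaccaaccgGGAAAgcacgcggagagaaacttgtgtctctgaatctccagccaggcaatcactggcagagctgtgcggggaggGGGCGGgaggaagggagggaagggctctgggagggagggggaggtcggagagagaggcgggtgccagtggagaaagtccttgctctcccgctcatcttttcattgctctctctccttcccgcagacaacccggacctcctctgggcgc
Gpr83, chr9:14859960-14860259: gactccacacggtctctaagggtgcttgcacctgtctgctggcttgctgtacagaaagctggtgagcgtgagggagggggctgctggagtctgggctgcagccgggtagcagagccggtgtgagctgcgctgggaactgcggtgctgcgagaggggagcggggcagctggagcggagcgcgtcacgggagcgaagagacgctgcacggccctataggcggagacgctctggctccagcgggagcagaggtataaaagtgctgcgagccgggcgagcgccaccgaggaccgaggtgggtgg
Nt5e, chr9:88327359-88327658: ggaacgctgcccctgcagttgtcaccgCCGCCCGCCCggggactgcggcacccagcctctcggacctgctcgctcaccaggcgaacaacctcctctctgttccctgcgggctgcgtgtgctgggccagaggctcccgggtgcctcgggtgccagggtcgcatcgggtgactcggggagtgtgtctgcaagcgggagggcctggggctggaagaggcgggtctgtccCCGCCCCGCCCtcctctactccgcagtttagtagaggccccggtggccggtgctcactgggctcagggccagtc

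The Foxp3 window shown held the core GGAAA bound by NFAT at 2 places and a MAF motif, TGCTGA, at 1 place. The Nrp1 window held GGAAA and the GC box GGGCGG once each. In the Nt5e window GGGCGG occurred 4 times, in overlapping or adjacent copies, and no other motif matched. The Gpr83 window matched none of the 10 motifs. Of all 32851 windows of this length, 61.34% held GGAAA, 35.66% GGGCGG and 19.48% TGCTGA, so such matches are common. The other motifs were AP-1 (TGANTCA, 7.81% of windows), the cyclic AMP element (TGACGTCA, 1.79%), EGR (GCGNGGGCG, 5.55%), FOXO (TGTTTAC, 3.65%), STAT (TTCNNNGAA, 8.3%), RUNX (TGTGGT, 16.76%) and NR4A (AAAGGTCA, 1.51%). A second Foxp3 window of the table, chrX:7580233-7580532, held GGAAA and the STAT motif once each, overlapping. A match describes letters in a window and not a site in use.

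Sorted cells carried T cell transcripts on every array. Of 9 T cell markers 7 were measured, all above the median probe set in every group, and Cd3d, a subunit of the receptor complex, lay between 10.56 and 12.21. Of the 9 B cell markers measured, 4 to 7 lay below the median probe set, depending on the group. Only 3 or 4 of the 15 dendritic cell and macrophage markers did, so transcripts of other cells were not absent. The deposited mean intensity of the 6 replicate 2 arrays ran from 83.5 to 101, and that of the other 10 arrays from 106 to 121. Arrays deviated from their group means together when they shared a replicate number, so each difference was also fitted with the replicate number as a block. Values with that replicate block are given where they changed a call. The replicate 2 arrays without antigen were in another array run than those with antigen. In replicate 2, antigen and array run therefore cannot be told apart. The antibody comparisons share arrays with the antigen comparisons, and comparisons that share a group are not independent.

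Antigen on resting dendritic cells came with a rise of some regulatory genes and a fall of others. With persistent antigen and PBS, Nrp1 rose and Gpr83 fell. These were 2 of the 7 measured members, against 3.57% of all genes in the same comparison with no antigen and PBS (limma, Benjamini-Hochberg adjusted p under 0.05). With the replicate block 5 of 7 passed, against 16.7% of all genes. Nrp1, Nt5e and Il10 rose, while Gpr83 and Foxp3 fell. The median difference of the 7 members was -0.04, beside -0.03 for all genes. In a sorted population, fewer cells of a type and less RNA per cell cannot be told apart. With transient antigen and PBS, 0 of 7 members passed, against 0.126% of all genes. An unadjusted p under 0.05 was reached by 2 members and by 845 of the 18193 genes. With the block, Nrp1 rose and Gpr83 fell, 2 of 7 against 2.89% of all genes.

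Foxp3, the lineage factor, was dim and did not rise in any comparison. With FGK it read 3.19, 3.89 and 3.03 under persistent antigen, 3.09 and 3.67 under transient antigen and 3.73 and 3.81 without antigen. It read 3.26, 3.62 and 3.18 on the persistent PBS arrays, 3.49, 3.72 and 3.38 on the transient PBS arrays and 3.61, 4.39 and 3.90 on the PBS arrays without antigen. On 15 of 16 arrays it lay below the median probe set, and the arrays without antigen held the top of its range. The log2 difference of persistent antigen with PBS from PBS without antigen was -0.61 ± 0.24 (SE, n = 3 each). That difference passed only with the block (adjusted p = 0.25 in limma, 0.0038 with the block), and the persistent array was the lower one in 3 of 3 replicate pairs, although the groups overlapped.

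**Figure D1:**
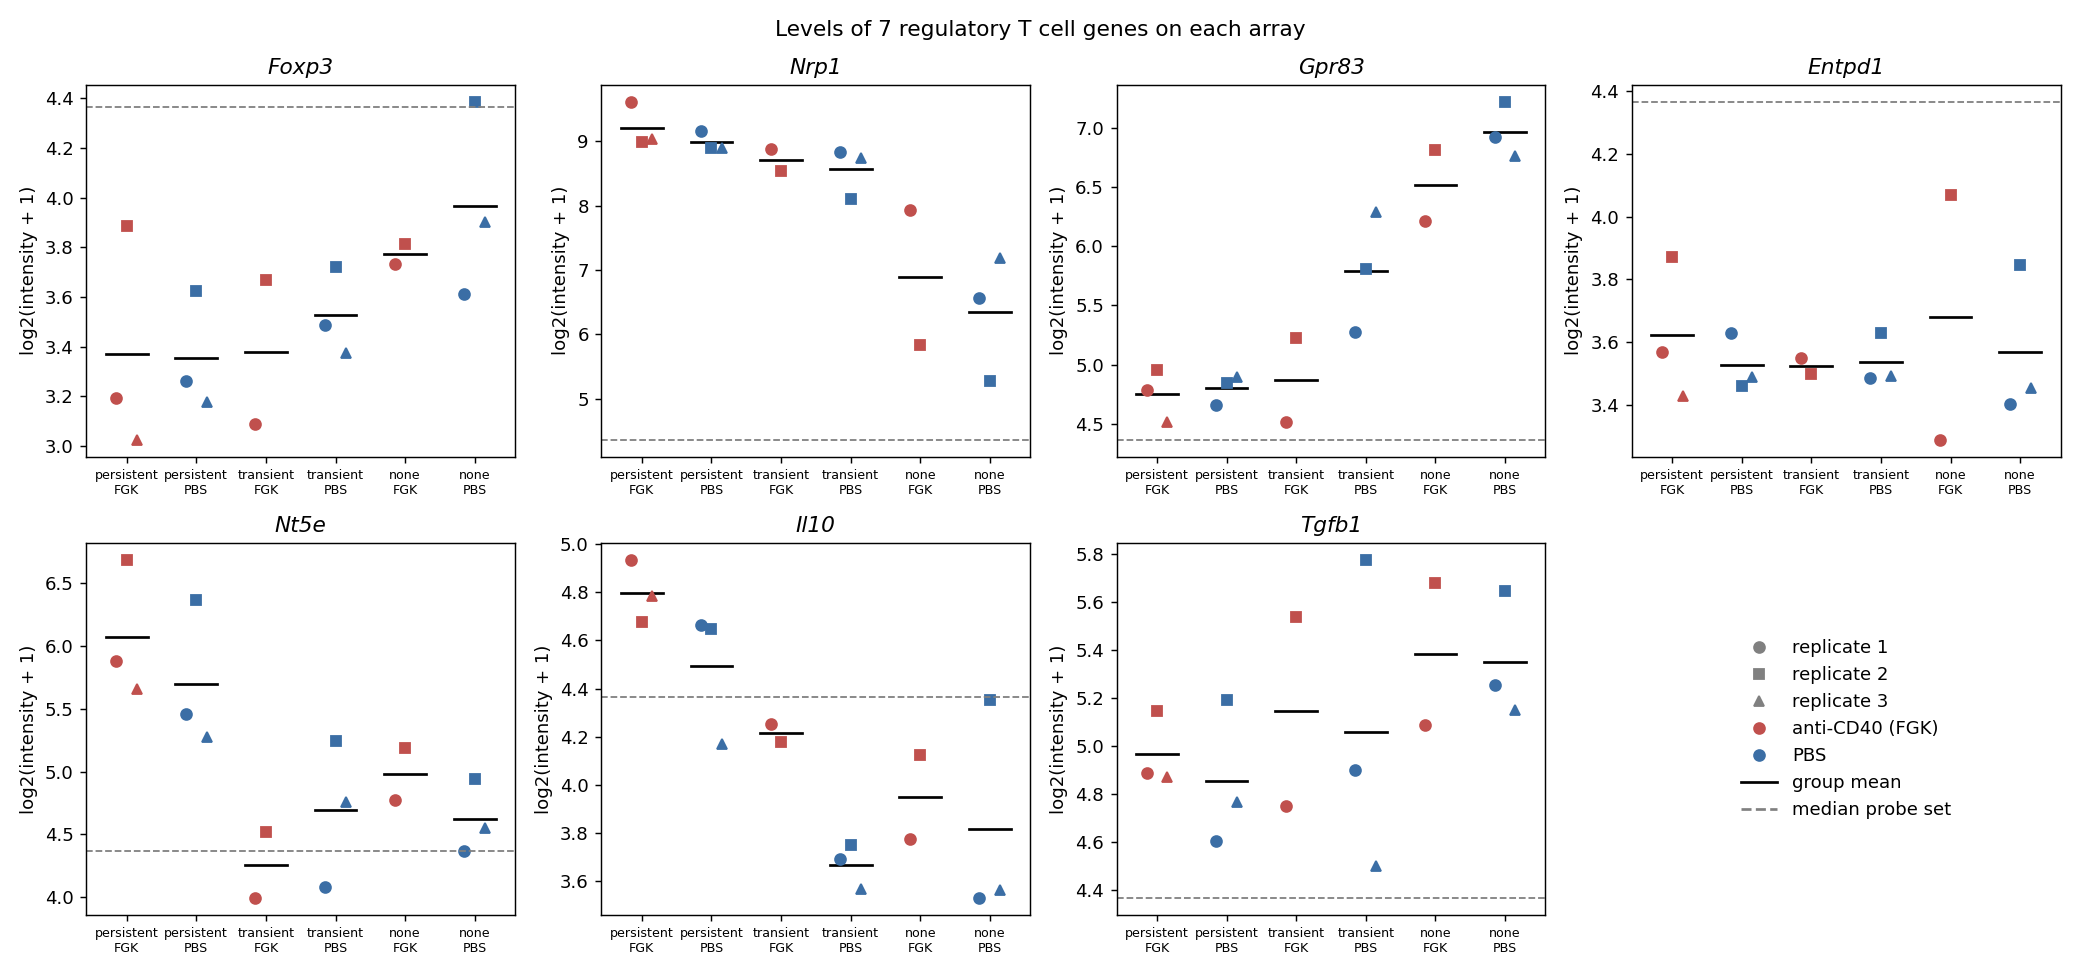
Levels of the 7 measured genes in log2(intensity + 1) on each of the 16 arrays, by group along the x axis, with the marker shape giving the replicate, red FGK, blue PBS, the bar the group mean and the dashed line the median probe set. Nrp1 is higher and Gpr83 lower in all groups with antigen, Nt5e and Il10 stand highest under persistent antigen, and Foxp3 and Entpd1 lie near or under the dashed line.

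Nrp1 encodes neuropilin-1, a co-receptor for semaphorins and vascular endothelial growth factor that marks many thymus-derived regulatory cells and also binds TGF-beta. Its level stood higher with antigen under both treatments, and with the block it passed against no antigen in all 4 comparisons. With FGK it read 9.61, 8.99 and 9.03 under persistent antigen, 8.88 and 8.53 under transient antigen and 7.94 and 5.83 without antigen. It read 9.16, 8.89 and 8.90 on the persistent PBS arrays, 8.84, 8.11 and 8.74 on the transient PBS arrays and 6.57, 5.27 and 7.18 on the PBS arrays without antigen. Every array with antigen lay above every array without it. The arrays without antigen spread widely (SD 0.97 with PBS, n = 3), with replicate 2 the lowest under both treatments.

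In means, Nrp1 stood at 8.98 ± 0.15 under persistent antigen and PBS, against 6.34 ± 0.97 without antigen (SD, n = 3 each), a log2 difference of 2.64 ± 0.51 (SE, adjusted p = 0.0088 in limma). This is a 6.23-fold difference on that scale. Transient antigen gave 2.22 ± 0.51 over none, which passed only with the block (adjusted p = 0.18, 0.00033 with the block). Persistent over transient antigen, at 0.42 ± 0.51, did not pass either way (adjusted p = 0.85, 0.43 with the block), though the 3 persistent arrays all lay above the 3 transient ones.

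Gpr83, a receptor of the G protein-coupled family enriched in regulatory cells, moved the other way. With FGK it read 4.78, 4.96 and 4.52 under persistent antigen, 4.52 and 5.22 under transient antigen and 6.22 and 6.81 without antigen. It read 4.66, 4.84 and 4.90 on the persistent PBS arrays, 5.28, 5.81 and 6.29 on the transient PBS arrays and 6.92, 7.22 and 6.76 on the PBS arrays without antigen. With PBS the 3 regimes did not overlap, and the transient arrays lay between the others. Persistent antigen with PBS gave a difference of -2.17 ± 0.27 from none (adjusted p = 0.00073), 0.222-fold. Transient antigen gave -1.17 ± 0.27 (adjusted p = 0.19, 0.0022 with the block), and this call with the block was lost on the other probe set, 1423415_at, at -0.63 (adjusted p = 0.083). Persistent from transient antigen, at -0.996 ± 0.27, also passed only with the block (adjusted p = 0.12, 0.0027 with the block).

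Entpd1 (CD39) and Nt5e (CD73) act in series on the cell surface: CD39 strips phosphates from ATP and CD73 makes adenosine from AMP. Entpd1 lay below the median probe set on 16 of 16 arrays, from 3.29 to 4.07, and passed in no comparison. Its persistent minus none difference with PBS was -0.04 ± 0.18.

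Nt5e was higher under persistent antigen with the block, on 1 of its 3 probe sets (1428547_at), and did not pass under transient antigen with PBS. With FGK it read 5.88, 6.69 and 5.66 under persistent antigen, 3.99 and 4.52 under transient antigen and 4.77 and 5.19 without antigen. It read 5.46, 6.37 and 5.27 on the persistent PBS arrays, 4.08, 5.24 and 4.76 on the transient PBS arrays and 4.37, 4.94 and 4.55 on the PBS arrays without antigen. Every persistent array lay above every other array of this gene, and replicate 2 was the highest array in all 6 groups. Persistent over none with PBS was 1.08 ± 0.35, or 2.12-fold (adjusted p = 0.14, 0.00028 with the block). Persistent over transient with PBS was 1.005 ± 0.35 (adjusted p = 0.26, 0.0011 with the block), and transient over none 0.08 ± 0.35 (adjusted p = 0.91 with the block).

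Il10 and Tgfb1 encode the suppressive cytokines. Il10 was dim, below the median probe set on 11 of 16 arrays, and its highest levels were under persistent antigen. With FGK it read 4.93, 4.68 and 4.78 under persistent antigen, 4.25 and 4.18 under transient antigen and 3.77 and 4.12 without antigen. It read 4.66, 4.65 and 4.17 on the persistent PBS arrays, 3.69, 3.75 and 3.57 on the transient PBS arrays and 3.53, 4.35 and 3.56 on the PBS arrays without antigen. The persistent PBS arrays lay above the transient PBS arrays without overlap, and 1 array without antigen (replicate 2) reached into their range. Persistent over none with PBS was 0.68 ± 0.21 (adjusted p = 0.11, 0.0092 with the block), and persistent over transient 0.82 ± 0.21 (adjusted p = 0.086, 0.0035 with the block). The first of these, with the block, did not pass without replicate 1 of the persistent PBS group (adjusted p = 0.066) or of the PBS group without antigen (adjusted p = 0.0996). Without replicate 2 of that last group it passed even with no block, at 0.95 (adjusted p = 0.011).

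Tgfb1 passed in no comparison. Its level ran from 4.50 to 5.78, with means of 4.86 ± 0.30 under persistent antigen and PBS, against 5.35 ± 0.26 without antigen (SD, n = 3 each). The difference was -0.50 ± 0.31 (adjusted p = 0.59, 0.057 with the block).

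With dendritic cells activated by FGK, the same 2 members passed for persistent antigen against none, Nrp1 upward and Gpr83 downward, against 2.37% of all genes. With the block it was 4 of 7, with Nt5e (on 1428547_at alone) and Il10 also up, against 16.4%. Nrp1 differed by 2.33 ± 0.57 (adjusted p = 0.047), Gpr83 by -1.76 ± 0.30 (adjusted p = 0.0091), Nt5e by 1.20 ± 0.21 with the block (adjusted p = 0.00048; 0.21 without) and Il10 by 0.93 ± 0.20 with the block (adjusted p = 0.0025; 0.076 without). Leaving out replicate 2 of the FGK group without antigen ended both calls made without the block (adjusted p = 0.707 for Nrp1, at 1.27, and 0.172 for Gpr83). The Nrp1 call, close to the threshold, was lost on leaving out any 1 of 13 of the 16 arrays. With the block it was lost on leaving out 0 of 16.

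With transient antigen and FGK, Gpr83 differed by -1.64 ± 0.33 on the log2 scale from FGK without antigen (adjusted p = 0.045). It was 1 of 7 members, against 0.572% of all genes. This call was lost on leaving out any 1 of 12 of the 16 arrays, and the highest adjusted p, 0.529, was without replicate 1 of the transient FGK group, at -1.29. With the block 3 of 7 passed, against 14% of all genes. Nrp1 rose by 1.82 ± 0.38 (adjusted p = 0.0025), Gpr83 was lower (adjusted p = 0.00017), and Nt5e differed by -0.72 ± 0.23 (adjusted p = 0.038). The Nt5e call did not hold without any 1 of the 4 arrays compared (adjusted p = 0.069 to 0.24). It was also lost after cyclic loess (adjusted p = 0.060), on log2(intensity + 16), at -0.45 (adjusted p = 0.099), on replicates 1 and 3 only (adjusted p = 0.11) and on its other probe sets (adjusted p = 0.26 and 0.60). Without the block, the Gpr83 call was lost on its other probe set (adjusted p = 0.11). With the block, the Nrp1 call was lost without replicate 2 of the FGK group without antigen, at 1.10 (adjusted p = 0.136), or of the transient FGK group (adjusted p = 0.054).

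**Figure D2:**
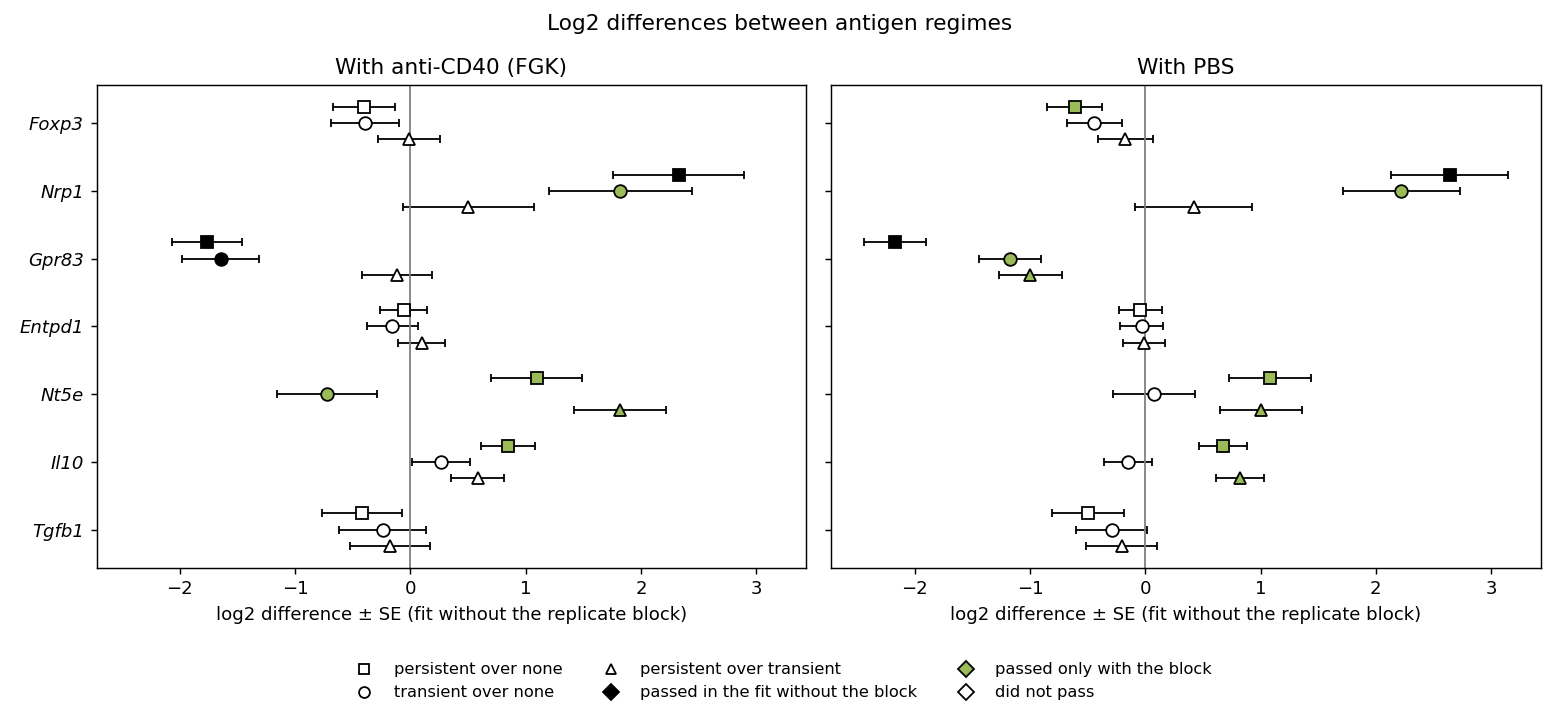
Log2 differences between antigen regimes with their standard errors on the x axis, for the 7 genes down the page, with FGK on the left and PBS on the right. The fill gives the call: Nrp1 and Gpr83 for persistent over none, with either treatment, and Gpr83 for transient over none with FGK are black, and all differences of Entpd1 and Tgfb1 are open.

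Between persistent and transient antigen with FGK, 0 of 7 members passed, against 0.0055% of all genes. An unadjusted p under 0.05 was reached by 2 members and by 355 of the 18193 genes. With the block Nt5e passed, 1 of 7 against 0.077% of all genes. It differed by 1.92 ± 0.21 or 3.8-fold (adjusted p = 0.00016, 0.94 without). On its other probe sets, 1422974_at and 1459023_at, this difference with the block was 0.10 and 0.13 (adjusted p = 0.98 and 0.96). With PBS 0 of 7 passed without the block, against 0.929% of all genes. There 3 members had an unadjusted p under 0.05, as did 2043 of the 18193 genes. With the block 3 of 7 passed, Nt5e and Il10 up and Gpr83 down, against 11.4%.

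FGK against PBS moved few of these genes, and in each comparison the share that passed was near that of all genes. Under persistent antigen 0 of 7 passed, with or without the block (0% of all genes passed). No member had an unadjusted p under 0.05, against 110 of the 18193 genes, or 484 with the block. Without antigen 0 of 7 passed, against 0% of all genes, or 0.0055% with the block. Again no member had an unadjusted p under 0.05, against 317 of all genes, or 965 with the block. Under transient antigen 0 of 7 passed, against 0.638% of all genes. An unadjusted p under 0.05 was reached by 2 members and by 1691 of the 18193 genes. With the block Gpr83 passed, 1 of 7 against 10.5% of all genes, at -0.90 ± 0.23 (adjusted p = 0.015), but not without replicate 1 of the transient FGK group, at -0.73 (adjusted p = 0.28). No member passed in the 3 tests of whether the antigen difference itself changed with FGK, with or without the block. Of all genes 0% passed these tests without the block, and 3.69% (transient over none), 0% (persistent over none) and 1.79% (persistent over transient) with it. At most 1 member without the block and at most 2 with it had an unadjusted p under 0.05. Of the 18193 genes, 157 to 895 did so without the block and 667 to 2943 with it. That a difference passed under 1 treatment and not under the other is therefore no sign that the treatments differed.

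Across the 6 groups the order of the mean levels differed between members. Nrp1 ran, from highest to lowest, persistent FGK, persistent PBS, transient FGK, transient PBS, FGK without antigen and PBS without antigen, and the widest gap, 1.68, lay between transient PBS and FGK without antigen. Neighbours on either side of this gap overlapped, except persistent PBS and transient FGK. Gpr83 ran in exactly the opposite order, with persistent FGK lowest and PBS without antigen highest, and its only gap between neighbours without overlap lay between transient PBS and transient FGK. Nt5e was highest under persistent antigen and lowest under transient antigen with FGK, and its only neighbours without overlap were persistent PBS and FGK without antigen. Il10 was highest under persistent FGK and lowest under transient PBS, and its neighbours without overlap were the 2 persistent groups, and transient FGK with FGK without antigen. For Foxp3 only transient PBS and FGK without antigen did not overlap as neighbours, and for Entpd1 and Tgfb1 all neighbours did.

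Over the 16 arrays, which share groups and replicate effects, Nrp1 and Gpr83 correlated at -0.89, Nt5e and Il10 at 0.72, and Nrp1 and Nt5e at 0.30.

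The genes most like each member in pattern were named by Pearson's correlation over the 16 arrays. Nrp1 was closest to Clic1 (r = 0.96), Pycard, Ehmt2, Cxcr3 and Stk39. Gpr83 was closest to Ttc28 (r = 0.98), Abca1, Il27ra, Akap8l and Tgfbr2. Nt5e was closest to Ttc39c (r = 0.83), Anp32a, Tgfb3, Ikbkg and Tubgcp4, and Il10 to Ubap2 (r = 0.87), Lgals3, Tubgcp4, Septin11 and Cenps.

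Several probe sets per gene allowed a second reading of 5 members. All 4 probe sets of Nrp1 stood higher with persistent antigen than without, by 1.38 to 2.64 with PBS, and all 4 passed with the block. Without the block 1448943_at did not pass (2.11, adjusted p = 0.13). With FGK and no block, neither 1448943_at (adjusted p = 0.26) nor 1448944_at (adjusted p = 0.055) passed. Both probe sets of Gpr83 stood lower (-2.17 and -1.40), each past the threshold with and without the block. The 3 probe sets of Entpd1 differed by -0.04 (1423326_at, the one used), 0.14 (1450939_at) and 0.10 (1453586_at), and none passed. For Nt5e the 3 probe sets did not agree. The one used, 1428547_at, differed by 1.08, while 1422974_at differed by -0.08 and 1459023_at by 0.16, neither of which passed. The Tgfb1 probe set used, 1445360_at, differed by -0.50 and the other, 1420653_at, by 0.17, and neither passed.

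**Figure D3:**
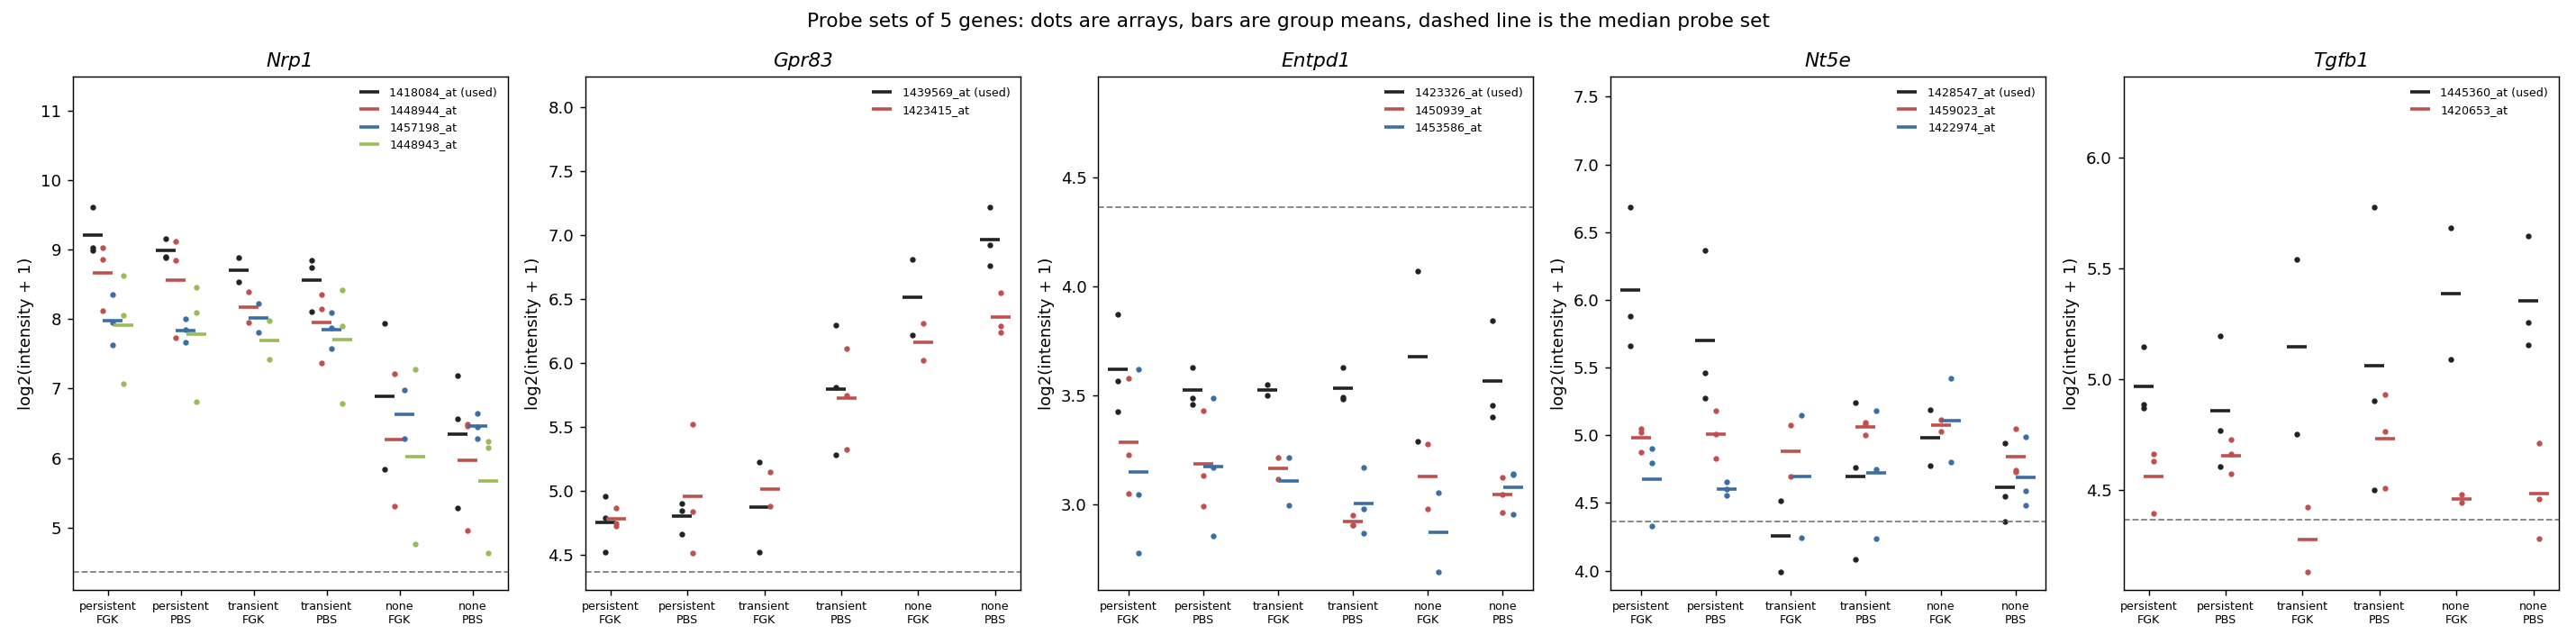
Levels in log2(intensity + 1) of each probe set of Nrp1, Gpr83, Entpd1, Nt5e and Tgfb1 on the y axis, by group on the x axis, with dots for arrays and bars for group means. The 4 probe sets of Nrp1 and the 2 of Gpr83 move together, while only 1 of the 3 of Nt5e stands higher under persistent antigen, and the 3 of Entpd1 lie below the median probe set.

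Other genes of the regulatory T cell signature gave a mixed picture. Of 35 measured, 7 rose and 1 fell under persistent antigen with PBS against none, and 11 rose and 6 fell with the block (48.6%, against the 16.7% of all genes given above). Their median difference was -0.04. Those with the smallest p were Gzmb, a granule protease, at 4.62 ± 0.66 (adjusted p = 0.0013), S100a4, a calcium-binding protein, at 2.88 ± 0.42 (adjusted p = 0.0016), and the galectins Lgals3, at 2.98 ± 0.31 (adjusted p = 0.00024), and Lgals1, at 3.69 ± 0.44 (adjusted p = 0.00055). These are also known as genes of activated effector cells. With transient antigen and PBS, 7 rose and 3 fell with the block, and 1 rose and 1 fell without it (28.6% and 5.71%, against 2.89% and 0.126% of all genes). The inhibitory receptor gene Ctla4 differed by 1.95 ± 0.21 with the block (adjusted p = 2.1e-05, 0.40 without), Il2rb by 1.20 ± 0.17 (adjusted p = 0.00047, 0.39 without), and the costimulatory receptor gene Tnfrsf9 by -1.61 ± 0.23 (adjusted p = 0.015). Of the regulatory T cell markers, Ctla4, Nrp1 and Nt5e rose and Foxp3, Gpr83, Izumo1r and Tnfrsf18 fell with the block under persistent antigen and PBS, 7 of 10 measured.

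**Figure D4:**
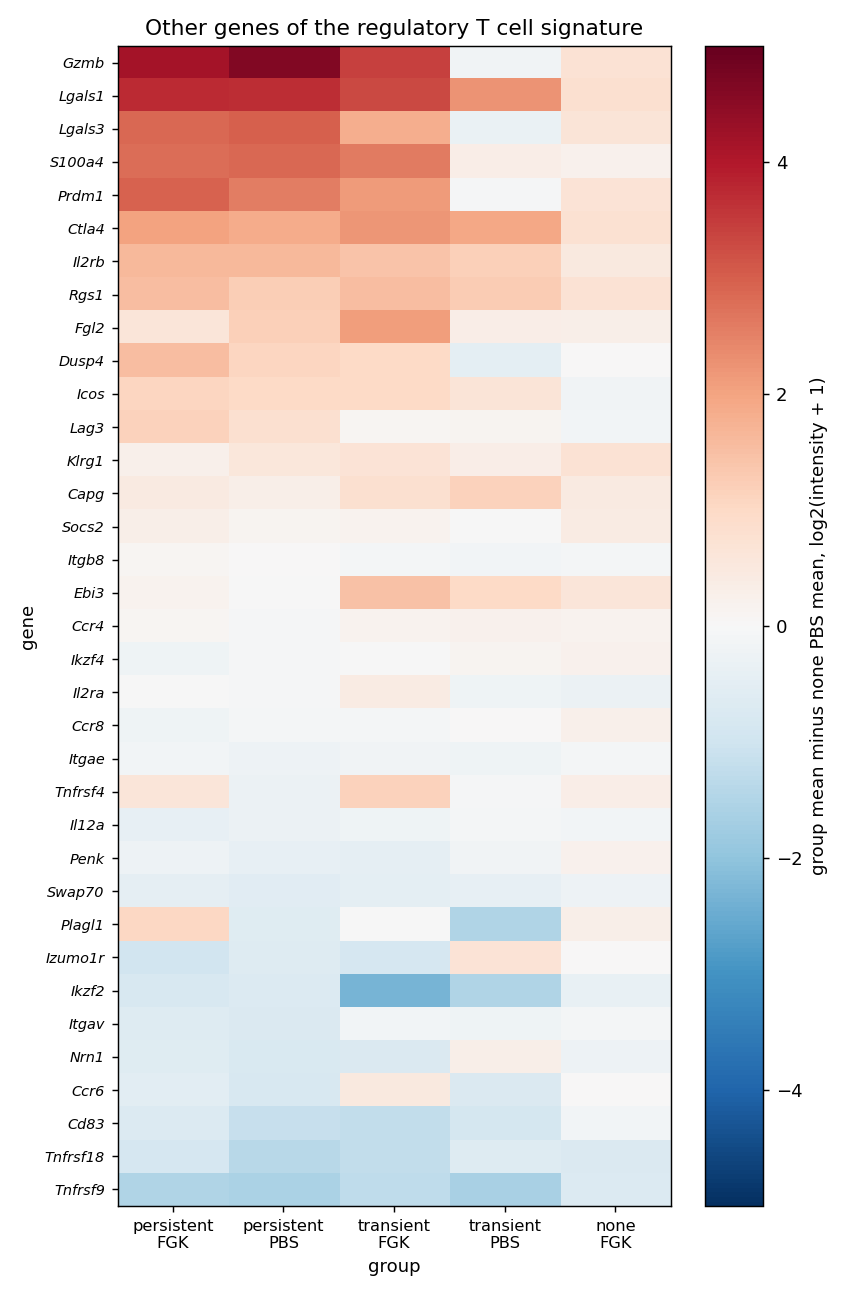
Group means of the 35 other genes of the regulatory T cell signature minus the mean of PBS without antigen, in log2(intensity + 1), with groups on the x axis and genes down the page, ordered by the persistent PBS difference. Gzmb, Lgals1, Lgals3 and S100a4 top the list with differences of 4.62, 3.69, 2.98 and 2.88 in persistent PBS, and Tnfrsf9 stands at its foot.

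Genes that control Foxp3, or act with its protein, moved in both directions. Under persistent antigen with PBS, 2 rose and 3 fell of 31 measured, and 6 rose and 8 fell with the block, with a median of -0.07. These are 16.1% and 45.2%, against 3.57% and 16.7% of all genes. Bach2, a repressor of effector genes, fell by 2.34 on the log2 scale (± 0.22, adjusted p = 0.00019) and Foxp1, a quiescence factor, fell by 1.56 (± 0.30, adjusted p = 0.0084). Ezh2, the Polycomb methyltransferase, rose by 2.14 ± 0.43 (adjusted p = 0.012). Uhrf1, which recruits the maintenance DNA methyltransferase, rose by 2.86 ± 0.29 with the block (adjusted p = 8.3e-07, 0.057 without).

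Around Entpd1 and Nt5e, the other genes of extracellular ATP and adenosine mostly rose where they passed. Under persistent antigen with PBS, 2 rose of 19 measured and none fell, and 7 rose and 1 fell with the block (10.5% and 42.1%, against 3.57% and 16.7% of all genes). P2rx7, the ATP-gated channel, rose by 1.79 ± 0.27 (adjusted p = 0.0019) and Pnp, which breaks down inosine, by 1.49 ± 0.26 (adjusted p = 0.0051). P2rx7 also rose with transient antigen and PBS, by 1.87 ± 0.27 (adjusted p = 0.015). With the block Dpp4 rose by 1.13 ± 0.16 (adjusted p = 3.5e-05) and the channel gene Panx1 by 1.02 ± 0.18 (adjusted p = 0.00033).

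Among genes for release and presentation of TGF-beta, 1 rose of 21 measured in that comparison, and 2 rose and 1 fell with the block. These shares, 4.76% and 14.3%, lay near the 3.57% and 16.7% of all genes. Tgfb3, a ligand of the same family as Tgfb1, rose by 1.36 ± 0.27 (adjusted p = 0.011), and by 1.45 ± 0.27 over transient antigen (adjusted p = 0.022). The integrin subunit gene Itgav differed by -0.72 ± 0.23 with the block (adjusted p = 0.032).

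Genes of IL-10 control and response had 4 higher and 2 lower of 27 measured under persistent antigen with PBS, and 10 higher and 4 lower with the block (22.2% and 51.9%, against 3.57% and 16.7% of all genes). Maf, a factor that drives Il10 and Il21 in T cells, rose by 4.29 ± 0.52 (adjusted p = 0.00063), Il21 by 4.60 ± 0.60 (adjusted p = 0.00075) and Tbx21, the Th1 factor, by 3.29 ± 0.66 (adjusted p = 0.012). Il6st, the shared receptor chain gp130, fell by 2.06 (± 0.38, adjusted p = 0.007). Under transient antigen with PBS, Maf differed by 1.97 ± 0.28 with the block (adjusted p = 0.00037, 0.32 without).

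Of the genes known to be low in regulatory T cells, 9 were measured. With persistent antigen and PBS 3 fell and none rose, and 5 fell and 2 rose with the block, with a median of -0.73 against the -0.03 of all genes. These are 33.3% and 77.8%, against 3.57% and 16.7% of all genes. Il7r, the IL-7 receptor, fell by 3.14 (± 0.37, adjusted p = 0.0005), Igfbp4 by 3.73 (± 0.68, adjusted p = 0.0065) and Satb1, a chromatin organiser, by 1.18 (± 0.21, adjusted p = 0.0052). Ifng, a Th1 cytokine gene in the same list, rose by 2.77 ± 0.39 with the block (adjusted p = 3.2e-05, 0.26 without). Whether the falls mark a regulatory state was not tested, and Foxp3 did not rise in this comparison.

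Few markers of other cells passed between persistent and no antigen with PBS, but some of their summed levels did not overlap. With the block Fcer2a, of 9 B cell markers, Eomes, of 6 NK and CD8 T cell markers, and Pecam1, of 7 stromal and endothelial markers, fell, none of 15 dendritic cell and macrophage markers or of 4 granulocyte markers passed, and Xbp1, of 4 plasma cell markers, rose. The T cell markers Cd2, Cd3g and Cd5 fell, 3 of 7. Of all genes 16.7% passed in this comparison with the block. Summed intensity of the 15 dendritic cell and macrophage markers was 467 to 614 under persistent antigen, against 491 to 582 without. Summed intensity of the 9 B cell markers was 156 to 278 under persistent antigen, against 225 to 267 without. Both of these sums overlapped between the groups. For the 6 NK and CD8 T cell markers it was 110.1 to 159, against 169.6 to 220.0, for the 4 plasma cell markers 395 to 498, against 314 to 342, and for the 4 granulocyte markers 54.9 to 65.1, against 66.6 to 67.5. For the 7 stromal and endothelial markers it was 118 to 142, against 139.6 to 163. For the T cell markers it was 4364 to 5494, against 6103 to 6359. A sum is weighted to its brightest genes. Xbp1 lay between 7.67 and 9.10 over all arrays, while the other plasma cell markers reached at most 5.37. Eomes reached 7.24, while the other NK and CD8 T cell markers reached at most 5.83. The median log2 difference was -0.07 for the plasma cell markers and -0.03 for the NK and CD8 T cell markers. The part of other cells in the differences above was not tested.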

How the data were processed

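Per the labels' protocols, Trizol RNA of the sorted cells went through 2 amplification rounds and biotin labelling, and was measured on 16 Affymetrix mouse arrays, 1 per sample. The deposited values are intensities of 45101 probe sets that the authors produced by RMA (version not stated), per the submitters' processing notes. The deposited intensities were put on the log2(intensity + 1) scale and not normalized again, and this scale shrinks differences between dim genes. Of the probe sets, 34945 carried 1 symbol in the platform's gene names, 932 carried several and 9211 had no entry. The 64 controls of the array, some of them among those with no entry, were left out. The brightest probe set on average stood for each gene. Array signal has no read depth, and the number of arrays limits the precision.

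For the tests limma 3.58.1 (R 4.3.3, with the package data.table, version 1.17.8) fitted 6 group means to all 16 arrays together, with a trend of the variance on intensity and without a block. Adjustment was by Benjamini-Hochberg across the 18193 genes, and an adjusted p under 0.05 passed. The model was tested on simulated data. Replicate numbers come from the titles. Pairing was checked on each array's deviations from its group mean. The 36 pairs with a shared number had correlations of 0.48 to 0.81. The 70 pairs without one ran from -0.81 to 0.60, which overlaps that range, with a median of -0.53. Deviations cancel within a group, so positive correlations of matched pairs bring negative ones elsewhere. For 16 of 16 arrays the closest array had the same number. The numbers were taken to pair the arrays on this evidence, since the labels do not say it, and the fit with the number as a block is given beside a result where it changes the call. No array was identical to another.

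Members and gene lists were chosen with earlier results of these data known. All members are named. From each list, up to 4 genes with the smallest p among those past the threshold in the fit with the block are named per comparison, and the rest are counted. The lists were other signature genes, Foxp3 control, extracellular ATP and adenosine, TGF-beta release, IL-10 control and genes low in regulatory T cells, and markers of other cells. Promoter sequences are those of RefSeq. The fit was repeated with the replicate block, with a block for array runs, on the compared groups alone, without the trend, without dim genes, with averaged or other probe sets, after cyclic loess, on log2(intensity + 16), with array weights and without each array in turn. Fits of replicates 1 and 3, and alternatives to the blocked fit, were chosen after seeing the data. A group left with 1 array is assumed to vary like the others.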

Additional observations from a re-analysis of the deposited data

Results flagged for a closer look

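For 3 results the replicate pairs of one setting all moved one way and those of the other setting all moved the opposite way. In each of them the test of the difference itself did not pass.

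Foxp3 was lower under persistent than transient antigen in 3 of 3 pairs with PBS and higher in 2 of 2 pairs with FGK. The difference of the 2 differences, FGK minus PBS, was 0.16 (adjusted p = 0.9997), and 0.25 with the replicate block (adjusted p = 0.78). Foxp3 was dim on all of these arrays.

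Nt5e was lower with FGK than with PBS in 2 of 2 pairs under transient antigen (-0.09 and -0.72) and higher in 2 of 2 pairs without antigen (0.41 and 0.25). The interaction was -0.80 without and with the replicate block (adjusted p = 0.9998, 0.15 with the block). Under persistent antigen Nt5e was higher with FGK in 3 of 3 pairs (0.42, 0.32 and 0.38), and the interaction with transient antigen was 0.81 (adjusted p = 0.9997), and 0.92 with the replicate block (adjusted p = 0.12).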

How the results depend on the processing

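The replicate block moved the number of members called in 7 of the comparisons. The values were 2 for transient against no antigen with PBS, 5 for persistent against none with PBS, 3 for persistent against transient with PBS, 3 for transient against none with FGK, 4 for persistent against none with FGK, 1 for persistent against transient with FGK and 1 for FGK against PBS under transient antigen. A block for the array runs gave the same 7 counts. With that block, no replicate 2 pair compares antigen with none within a run. In the other comparisons the block changed no call of a member. In the order of the first 3, array weights gave 2, 5 and 3, and replicates 1 and 3 only gave 1, 5 and 1. Cyclic loess gave 1 for the first and 1 for the third. For transient against none with FGK, array weights, the compared groups alone and replicates 1 and 3 only each gave 0. For persistent against none with FGK, the compared groups alone gave 0, and replicates 1 and 3 only and averaging the probe sets of each gene gave 1 each. With the block, averaging the probe sets of each gene gave 0 for persistent against transient with FGK. No intensity trend and log2(intensity + 16) moved no count by over 1.5 times.

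Leaving out each array gave 0 for transient against none with PBS, 2 to 3 for persistent against none with PBS, 0 to 1 for persistent against transient with PBS, 0 to 2 for transient against none with FGK and 0 to 3 for persistent against none with FGK. With the block these ranges were 2, 4 to 6, 3, 1 to 3 and 4. For FGK against PBS under transient antigen they were 0 without the block and 0 to 2 with it, and for persistent against transient with FGK 0 without it and 1 with it. For FGK against PBS without antigen and under persistent antigen, and for the 3 interactions, they were 0.

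Among differences that passed with or without the block, directions turned only for Nt5e, on its other probe sets. Entpd1 and Tgfb1, which passed nowhere, also had probe sets of opposite sign for persistent against none. With FGK, persistent minus none was -0.43 on 1422974_at and -0.090 on 1459023_at (-0.32 and -0.062 with the block), and persistent minus transient was -0.017 on 1422974_at. With PBS, persistent minus none was -0.085 on 1422974_at without and with the block, and persistent minus transient was -0.12 on 1422974_at and -0.054 on 1459023_at, each without and with it. None of these passed. The mean of its 3 probe sets, with the block, ended the Nt5e calls for persistent over transient (0.72 with FGK, 0.28 with PBS) and for persistent over none with FGK (0.27). The cause was not tested. The median of all genes moved by under 0.1 between scalings. Signal over background limits Foxp3, Entpd1 and Il10, which are dim.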
